A study of Rattus norvegicus with 12 samples.

Results

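The prostaglandin genes described here are 10 listed genes that make prostaglandins, bind them or break them down: the cyclooxygenases Ptgs1 and Ptgs2, the synthases Ptges and Hpgds, the receptors Ptger1, Ptger2, Ptger3, Ptger4 and Ptgdr2, and the dehydrogenase Hpgd. A gene was taken as measured where a probe set carried its symbol and no other in the platform annotation, and 9 of the 10 genes, each with 1 probe set, were matched among 19418 probe sets. Ptger2 had no match and was not analysed here. The RNA came from livers of Sprague Dawley rats and was hybridised to Affymetrix whole-transcript arrays, 1 array per sample. The 12 samples are labelled as biological replicates and are taken here as 1 rat each, of which 4 had been fed NO-naproxen at 550 mg/kg of diet, 4 naproxen at 400 mg/kg of diet and 4 a control diet without drug, all for 7 days. Naproxen belongs to the nonsteroidal anti-inflammatory drugs and blocks both cyclooxygenases, and NO-naproxen is a derivative that carries a nitric oxide-donating group. Each drug was given at 1 dose, and the doses of both drugs differ by weight.

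Cyclooxygenases convert arachidonic acid, released from membranes by phospholipases, into the short-lived precursor of all prostanoids. Ptgs1 is present in most tissues, while Ptgs2 is low at rest and is induced by cytokines, growth factors and injury. Terminal synthases such as Ptges and Hpgds turn the precursor into prostaglandin E and prostaglandin D, which act on G protein-coupled receptors of neighbouring cells. Hpgd inactivates prostaglandin E. In liver, Kupffer cells, the resident macrophages, are a main source of prostaglandins, and the receptors are found on hepatocytes as well as on nonparenchymal cells.

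The promoters of both cyclooxygenases are shown because these are the enzymes the drugs inhibit. Each line gives the 250 bases before the RefSeq start in build GRCr8, 5′ to 3′ on the plus strand, with matches to 5 motifs in capitals.
Ptgs1, chr3:39981169-39981418: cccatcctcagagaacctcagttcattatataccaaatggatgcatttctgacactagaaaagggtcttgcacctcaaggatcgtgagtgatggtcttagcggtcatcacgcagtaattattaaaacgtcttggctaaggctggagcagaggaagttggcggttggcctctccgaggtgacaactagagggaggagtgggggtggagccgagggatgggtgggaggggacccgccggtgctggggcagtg
Ptgs2, chr13:64713813-64714062: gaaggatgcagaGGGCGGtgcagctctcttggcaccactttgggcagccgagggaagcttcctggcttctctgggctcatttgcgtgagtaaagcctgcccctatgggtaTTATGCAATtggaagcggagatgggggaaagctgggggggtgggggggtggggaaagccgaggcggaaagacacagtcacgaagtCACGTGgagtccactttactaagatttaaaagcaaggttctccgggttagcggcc
The motifs searched on both strands were the TATA box TATAAA, the E-box CACGTG, the cyclic AMP response element TGACGTCA, the GC box GGGCGG and a C/EBP site TTNNGCAAT. In the Ptgs2 window a GC box lay 238 to 233 bases before the start, a C/EBP site at 140 to 132 bases and an E-box at 55 to 50 bases, with no overlap between them. None of the 5 motifs matched in the Ptgs1 window. Over 33469 windows of the same length, 30.5% held the GC box, 2.04% the C/EBP site, 5.59% the E-box, 12.9% the TATA box and 1.59% the cyclic AMP response element. The first 25 bases of the Ptgs2 window also lie within Ptgs2os, a long noncoding RNA gene that RefSeq places next to Ptgs2. These matches describe the letters of the windows, and no binding was measured.

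Values are probe set intensities, or log2(intensity + 16) where a log2 level is named, and log2 fold changes are differences of these log2 levels. Array medians lay between 89.8 and 118. The interquartile range of the log2 levels was 2.36 ± 0.23 on NO-naproxen arrays, 2.34 ± 0.16 on naproxen arrays and 2.10 ± 0.19 on control arrays (SD, n = 4 each). Control replicate 2 stood apart from the other controls, with an interquartile range of 2.37 against 1.94 to 2.09, and lay within the range of the drug-fed arrays, from 2.07 to 2.62. Probe sets of olfactory and vomeronasal receptors, 970 in all, served as a measure of background, since these genes serve the sense of smell. Their 95th percentile was 6.44 on the log2 scale, an intensity of 70.6, and a gene whose mean over the 12 arrays lay at or below it was called within the olfactory receptor range, as were 38.0% of all probe sets. The median log2 level of these probe sets was 5.06 on control replicate 2 and 5.23 to 5.31 on the other controls. Of the hepatocyte markers, 5 of 7 were measured and none lay within that range, with Alb at a mean log2 level of 13.68.

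Of the 9 measured prostaglandin genes, Ptgs1, Ptgs2, Hpgds, Ptger1 and Ptger3 lay above the olfactory receptor range and Hpgd, Ptges, Ptgdr2 and Ptger4 within it. Probe sets bind their targets with different strength, so a level is compared with that of the same gene on other arrays only. Ptgs1, Ptgs2, Hpgds and Ptger3 were above the bound on all 12 arrays and Ptger1 on 9 of 12. Hpgd passed the bound on 1 array and Ptges on 2, while Ptgdr2 and Ptger4 stayed below it on every array. The mean of Ptger4 lay at percentile 57.5 of the olfactory receptor probe sets, that of Ptgdr2 at 80.8, that of Ptges at 87.3 and that of Hpgd at 90.9. The plot of levels by rat shows each gene against this bound.

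**Figure D1:**
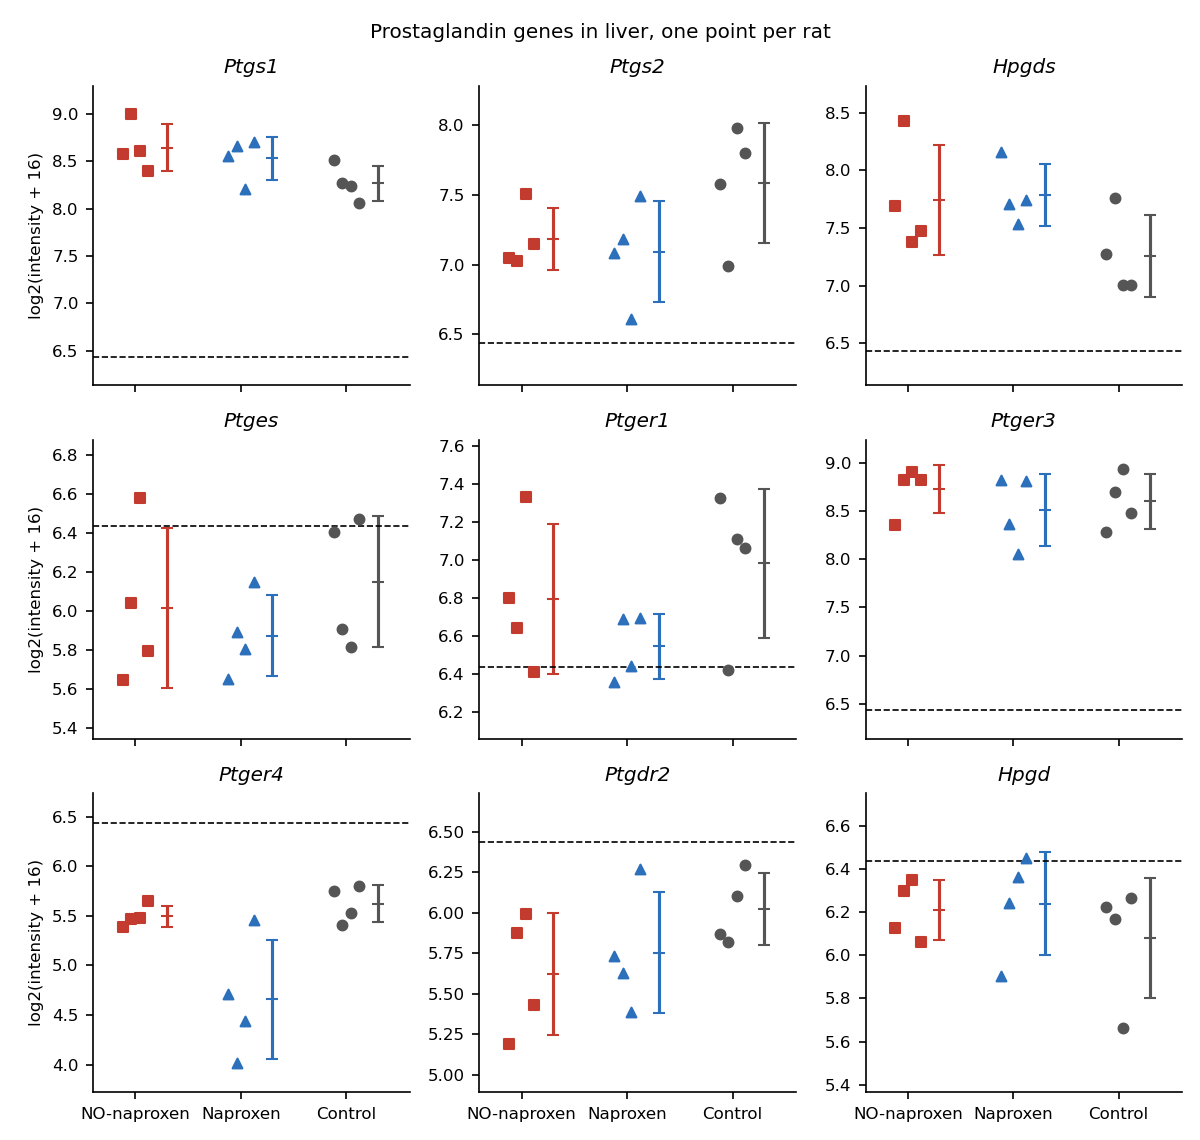
Log2 level, log2(intensity + 16), of the 9 measured prostaglandin genes in each rat, with NO-naproxen (squares), naproxen (triangles) and control (circles) side by side. Bars give the mean ± SD of 4 rats, and the dashed line is the 95th percentile of olfactory receptor probe sets at 6.44. Ptger4 lies below the line on all arrays, and in no panel are 2 diets fully apart.

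Ptgs1 (Entrez Gene 24693), the constitutive cyclooxygenase, measured higher in livers of drug-fed rats, and Ptgs2 (Entrez Gene 29527), the inducible one, measured lower, but neither difference passed the test over all probe sets. Ptgs1 had intensities of 366, 494, 375 and 322 in NO-naproxen livers, 361, 389, 279 and 403 in naproxen livers and 349, 292, 287 and 251 in control livers. With each drug 3 of 4 arrays were above all 4 controls and 1 was not. The log2 fold change of Ptgs1 was 0.38 ± 0.18 (SE) for NO-naproxen against control, a 1.30-fold difference with a 95% interval from -0.01 to 0.76. For naproxen against control it was 0.26 ± 0.18, with an interval from -0.12 to 0.64. In limma, with Benjamini-Hochberg adjustment over all 19418 probe sets, the adjusted p was 0.468 for NO-naproxen and 0.515 for naproxen (unadjusted 0.0533 and 0.166). After quantile normalization the log2 fold change for NO-naproxen was 0.23 (unadjusted p = 0.154). Without control replicates 3 and 4, the 2 arrays of narrowest spread, it was 0.26 for NO-naproxen and 0.14 for naproxen (unadjusted p = 0.278 and 0.541). Ptgs1 is also the cyclooxygenase of platelets, and summed intensities of the 5 measured platelet markers of 6, among which 2 lay in the olfactory receptor range, were 815 to 945 on NO-naproxen, 831 to 907 on naproxen and 759 to 850 on control arrays. Of the 5, the log2 fold change against control was above 0 for 4 with NO-naproxen and 3 with naproxen. Beside this, 50.1% and 45.9% of all probe sets were above 0. Above the olfactory receptor range, Itga2b had 0.28 with NO-naproxen and 0.27 with naproxen, Pf4 0.25 and 0.20 and Gp9 -0.34 and -0.39. Within that range, Gp5 had 0.56 and 0.76 and Ppbp 0.02 and -0.36. The part of these cells in the Ptgs1 values was not tested. In whole liver, fewer cells of a type and less RNA per cell cannot be told apart.

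Ptgs2 had intensities of 116, 114, 165 and 126 in NO-naproxen livers, 120, 129, 81.9 and 164 in naproxen livers and 175, 111, 236 and 206 in control livers. All 4 NO-naproxen arrays and 3 of 4 naproxen arrays lay within the range that the controls spanned, because control replicate 2, at 111, was below every NO-naproxen array. The mean log2 level was 7.18 ± 0.22 with NO-naproxen, 7.09 ± 0.36 with naproxen and 7.59 ± 0.43 in controls (SD, n = 4 each). The log2 fold change was -0.41 ± 0.23 (SE) for NO-naproxen against control (limma, unadjusted p = 0.0969, adjusted p = 0.473) and -0.49 ± 0.23 for naproxen against control (unadjusted p = 0.0476, adjusted p = 0.392). Without control replicate 2 these log2 fold changes were -0.60 and -0.69 (unadjusted p = 0.0124 and 0.00524). Without control replicates 3 and 4 they were -0.10 and -0.19 (unadjusted p = 0.702 and 0.481).

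Hpgds (Entrez Gene 58962), the glutathione-dependent synthase that makes prostaglandin D in macrophages and mast cells, measured higher with both drugs. Its intensities were 191, 329, 151 and 162 in NO-naproxen livers, 270, 193, 169 and 199 in naproxen livers and 139, 200, 113 and 112 in control livers. Control replicate 2, at 200, again lay among the drug-fed rats, while the other 3 controls were below all 8 of them. The log2 fold change was 0.48 ± 0.24 (SE) for NO-naproxen against control (limma, unadjusted p = 0.0627, adjusted p = 0.468) and 0.53 ± 0.24 for naproxen against control, a 1.44-fold difference (unadjusted p = 0.0451, adjusted p = 0.391). Without control replicates 3 and 4 the log2 fold changes were 0.23 and 0.27, and without NO-naproxen replicate 2, the highest array, that for NO-naproxen was 0.25. Markers of Kupffer cells and macrophages, with 13 of 14 measured and none in the olfactory receptor range, had summed intensities of 6361 to 9998 on NO-naproxen, 5951 to 8360 on naproxen and 5337 to 7822 on control arrays. Against control, 12 of these 13 markers were above 0 on the log2 fold change scale with NO-naproxen and 13 with naproxen, with medians of 0.31 and 0.20. Over all probe sets 50.1% and 45.9% were above 0. Without the dimmest 30% of probe sets the median log2 fold change was 0.07 with NO-naproxen and 0.03 with naproxen. Over the olfactory receptor probe sets it was -0.11 and -0.12. Of the T and NK cell markers 4 of 6 were measured, 2 of them in the olfactory receptor range, and 1 was above 0 with NO-naproxen and 0 with naproxen. Of 2 measured B cell markers of 4, each in that range, 0 were above 0 with either drug. All 4 measured sinusoidal endothelial markers of 10, none in the olfactory receptor range, were above 0 with both drugs, with medians of 0.29 and 0.41. Of 7 measured stellate cell markers of 9, none in that range, 6 were above 0 with NO-naproxen and 7 with naproxen, with medians of 0.28 and 0.23 and summed intensities of 3090 to 4175 on NO-naproxen, 3062 to 3982 on naproxen and 2382 to 3744 on control arrays. For the sinusoidal endothelial markers the sums were 2527 to 3397 with NO-naproxen, 2661 to 3345 with naproxen and 1901 to 2793 in controls. Of the mast cell markers 4 of 6 were measured and 3 of those lay in the olfactory receptor range, with summed intensities of 211 to 290 on NO-naproxen, 163 to 277 on naproxen and 196 to 220 on control arrays. Of these 4 markers 2 were above 0 with NO-naproxen and 1 with naproxen, with medians of 0.02 and -0.17. The part of these cells in the Hpgds values was not tested.

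Ptges (Entrez Gene 59103), the inducible synthase of prostaglandin E, lay within the olfactory receptor range. Its intensities were 34.1, 49.9, 79.5 and 39.6 in NO-naproxen livers, 34.3, 43.3, 39.9 and 54.9 in naproxen livers and 68.7, 44.1, 40.3 and 72.6 in control livers, so the diets overlapped. The log2 fold change was -0.13 ± 0.22 (SE) for NO-naproxen against control, with a 95% interval from -0.60 to 0.33, and -0.28 ± 0.22 for naproxen against control, with an interval from -0.74 to 0.19. With the olfactory receptor median as a covariate the values were 0.10 and 0.01, a change of sign for both drugs, and with the interquartile range as a covariate they were 0.12 and -0.04.

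Among the receptors, Ptger4 (Entrez Gene 84023), a prostaglandin E receptor that raises cyclic AMP, had the smallest p of the 9 genes, at a level within the olfactory receptor range. Its intensities were 25.8, 28.2, 28.6 and 34.0 in NO-naproxen livers, 10.3, 0.219, 5.68 and 27.9 in naproxen livers and 37.7, 26.5, 30.2 and 39.9 in control livers. Of the naproxen arrays 3 of 4 were under 16, the added constant, and none of the other 8 arrays was. Naproxen replicate 4, at 27.9, lay within the range of the controls. Of all probe sets, 9.91%, 8.12%, 11.1% and 6.27% were under 16 on naproxen replicates 1 to 4. The shares were 8.04%, 8.62%, 6.03% and 9.23% on NO-naproxen arrays and 6.11%, 9.37%, 6.01% and 5.87% on control arrays. The mean intensity of Ptger4 was 29.2 ± 3.49 with NO-naproxen, 11.0 ± 12.0 with naproxen and 33.6 ± 6.27 in controls (SD, n = 4 each). The log2 fold change was -0.97 ± 0.24 (SE) for naproxen against control, with a 95% interval from -1.47 to -0.46 (limma, unadjusted p = 0.000961, adjusted p = 0.381). For NO-naproxen against control it was -0.13 ± 0.24, with an interval from -0.64 to 0.38. With 1 added before log2 in place of 16 the naproxen value was -2.25, and with 64 it was -0.39, so its size depends on the constant. An exact permutation test of the log2 levels, 2-sided, gave p = 0.0571 for naproxen against control and the same for NO-naproxen against naproxen, where 0.0286 is the smallest that 4 against 4 can give (0.463 after Benjamini-Hochberg adjustment over 27 tests).

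Ptger1 (Entrez Gene 25637), a prostaglandin E receptor that signals through calcium, had intensities of 95.4, 83.8, 145 and 69.0 in NO-naproxen livers, 66.1, 87.2, 71.0 and 87.7 in naproxen livers and 145, 69.8, 122 and 118 in control livers. All 4 naproxen arrays were below 3 of the 4 controls, and control replicate 2, at 69.8, lay among them. Against control its log2 fold change was -0.19 ± 0.22 (SE) for NO-naproxen and -0.44 ± 0.22 for naproxen (limma, adjusted p = 0.689 and 0.414). Without control replicate 2 it was -0.37 for NO-naproxen and -0.62 for naproxen (unadjusted p = 0.097 and 0.00952), and without control replicates 3 and 4 it was -0.08 and -0.33 (unadjusted p = 0.788 and 0.273).

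Ptger3 (Entrez Gene 24929), a receptor for prostaglandin E that lowers cyclic AMP and is described in rat hepatocytes, had intensities of 312, 437, 462 and 437 in NO-naproxen livers, 436, 314, 249 and 432 in naproxen livers and 294, 400, 474 and 340 in control livers. The 3 diets overlapped, with log2 fold changes of 0.13 ± 0.21 (SE) for NO-naproxen and -0.09 ± 0.21 for naproxen against control. The 95% intervals, from -0.32 to 0.58 and from -0.54 to 0.36, leave room for a difference of up to 0.58 log2 units.

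Ptgdr2 (Entrez Gene 309212), a prostaglandin D receptor of immune cells, lay within the olfactory receptor range with intensities of 20.6, 42.8, 47.6 and 27.2 in NO-naproxen livers, 37.2, 33.4, 25.9 and 61.0 in naproxen livers and 42.3, 40.6, 52.8 and 62.5 in control livers. Its log2 fold change was -0.40 ± 0.22 (SE) for NO-naproxen and -0.27 ± 0.22 for naproxen against control (limma, adjusted p = 0.469 and 0.582). With the olfactory receptor median as a covariate these values were -0.13 and 0.06, a change of sign for naproxen, and without NO-naproxen replicate 1 the value for NO-naproxen was -0.25. Hpgd (Entrez Gene 79242), the dehydrogenase that inactivates prostaglandins, measured 53.7, 62.8, 65.6 and 50.7 in NO-naproxen livers, 43.8, 59.7, 66.2 and 71.5 in naproxen livers and 58.6, 55.8, 34.7 and 60.8 in control livers. Its log2 fold changes against control were 0.13 ± 0.18 for NO-naproxen and 0.16 ± 0.18 for naproxen, and the diets overlapped.

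Taking the 9 genes by comparison, none passed an adjusted p under 0.05 in limma for NO-naproxen against control, naproxen against control or NO-naproxen against naproxen, nor in the moderated F test over the 3 diets, and 0% of all probe sets did in each. The smallest adjusted p of a prostaglandin gene was 0.381. With NO-naproxen against control 0 of 9 genes had an unadjusted p under 0.05, beside 10.4% of all probe sets (5.49% higher and 4.86% lower). With naproxen against control 3 of 9 genes had one, beside 12.7% of all probe sets, namely Hpgds on the higher side (3.16%) and Ptgs2 and Ptger4 on the lower (9.50%). Between the drugs 1 of 9 did, Ptger4, beside 1.92% of all probe sets (1.28% higher and 0.644% lower).

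The study selected genes by a p under 0.05 together with a fold change of 1.5 or more, applied here to the unadjusted p of limma. None of the 9 genes was selected for NO-naproxen against control, where 3.80% of all probe sets were (1.78% higher and 2.02% lower). For naproxen against control Ptger4 was selected on the lower side, as were 4.97% of all probe sets (0.875% were on the higher side and 5.85% on either). Among probe sets within the olfactory receptor range 6.77% were selected as lower, and among the olfactory receptor probe sets 4.64%. The split of all selected probe sets in this comparison was 170 higher and 965 lower. It was 371 and 603 after quantile normalization and 463 and 483 after median centring, under which the median of all log2 fold changes was 0.08 and not -0.03. Without control replicate 2 the criterion selected 2 of the 9 genes for NO-naproxen against control, Ptgs2 and Hpgds, and 4 for naproxen against control, Ptgs2, Hpgds, Ptger1 and Ptger4, beside 13.2% and 15.3% of all probe sets. For NO-naproxen against control the split was 346 higher and 392 lower, and 632 and 266 after median centring.

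The median log2 fold change of the 9 genes was -0.13 for NO-naproxen against control and -0.27 for naproxen against control, with 0.00044 and -0.03 over all probe sets and -0.11 and -0.12 over the olfactory receptor probe sets, and both comparisons share the 4 control arrays. A log2 fold change above 0 was measured for 4 of 9 genes with NO-naproxen against control (50.1% of all probe sets), 3 of 9 with naproxen against control (45.9%) and 6 of 9 between the drugs (64.1%). In no comparison were the arrays of 2 diets apart for any of the 9 genes, while they were for 3.35% of all probe sets with NO-naproxen against control, 4.50% with naproxen against control and 1.17% between the drugs. In the F test Ptger4 had an unadjusted p of 0.00183 and an adjusted p of 0.583, and 7.91% of all probe sets had an unadjusted p under 0.05.

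**Figure D2:**
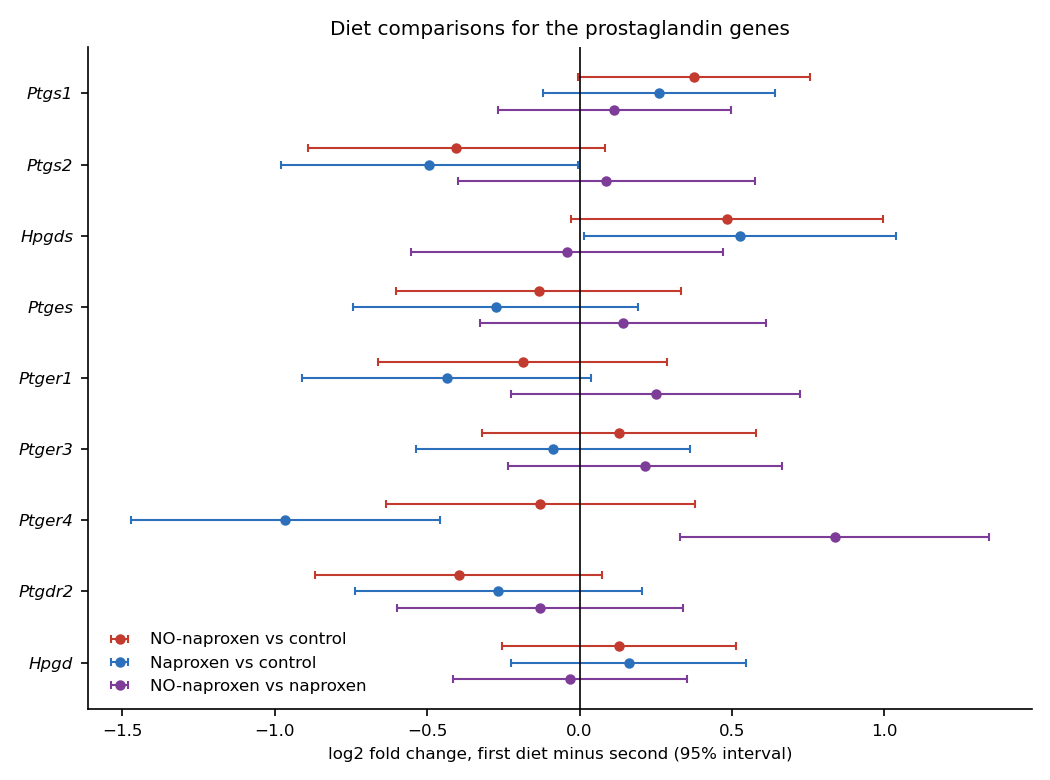
Log2 fold change with its 95% interval for each of the 9 prostaglandin genes, with NO-naproxen against control, naproxen against control and NO-naproxen against naproxen in separate colours. Ptger4 stands at -0.97 for naproxen against control and at 0.84 for NO-naproxen against naproxen, and of the other intervals those of Ptgs2 and Hpgds for naproxen against control do not include 0.

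Between the drugs, whose doses were 550 and 400 mg/kg of diet and so differed by weight, the values of most genes lay close together. Ptger4 had a log2 fold change of 0.84 ± 0.24 (SE) for NO-naproxen against naproxen, with a 95% interval from 0.33 to 1.34 (limma, unadjusted p = 0.00299, adjusted p = 1.00). By the study's criterion it was the only one of the 9 genes selected, on the higher side, as were 0.427% of all probe sets (0.144% were lower and 0.572% on either side), 0.841% of those within the olfactory receptor range and 0.722% of the olfactory receptor probe sets. The split of all selected probe sets was 83 higher and 28 lower, and it was 51 and 46 after quantile normalization and 55 and 46 after median centring. For the cyclooxygenases the intervals of NO-naproxen against naproxen ran from -0.27 to 0.50 for Ptgs1 and from -0.40 to 0.58 for Ptgs2, and for Hpgds from -0.55 to 0.47. For Ptger1 and Ptger3 the log2 fold changes were 0.25 ± 0.22 and 0.22 ± 0.21 (SE), with 95% intervals from -0.22 to 0.72 and from -0.23 to 0.66.

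Several of the prostaglandin genes moved with the background of the array. Over the 12 arrays the log2 level of Ptgs2 followed the median log2 level of the olfactory receptor probe sets with Pearson's r = 0.960 (permutation p = 1e-05, the smallest the resamples can give) and Spearman's rho = 0.888 (permutation p = 0.00029). Without the 2 arrays farthest from the median of that background r was 0.928, and with each diet's mean removed it was 0.940. Ptger1 followed it with r = 0.875 (permutation p = 0.00034) and rho = 0.881 (permutation p = 0.00034), with 0.888 without the 2 farthest arrays and 0.861 with diet means removed. Hpgds went with the interquartile range of the array, with r = 0.906 (permutation p = 4e-05) and rho = 0.832 (permutation p = 0.00124), 0.825 without the 2 farthest arrays and 0.864 with diet means removed. Of 18 relations, 9 genes with each of these 2 array measures, 8 had an adjusted p under 0.05 by Benjamini-Hochberg for Pearson's r, with 0.00018 for Ptgs2 and 0.00204 for Ptger1 against the olfactory receptor median and 0.00036 for Hpgds against the interquartile range. By Spearman's rho 6 of the 18 had one. Such relations were common on these arrays. Of all probe sets, 0.937% followed the olfactory receptor median at least as closely, in either direction, as Ptgs2 did, 8.19% as Ptger1 and 28.5% as Hpgds, the weakest of the 5 genes with an adjusted p under 0.05. For the interquartile range the shares were 3.43% for Hpgds, 13.1% for Ptgs2 and 26.7% for Ptger1. The median olfactory receptor level averaged 5.11 on NO-naproxen arrays, 5.08 on naproxen arrays and 5.22 on control arrays. Ptgs1 and Ptger3 showed no such relation to that level, with r = -0.204 and 0.266 (permutation p = 0.524 and 0.399). Their Spearman's rho was -0.021 and 0.266 (permutation p = 0.956 and 0.404). For Ptger4 r was 0.507 (permutation p = 0.0906) and rho 0.587 (permutation p = 0.0485). With the interquartile range, r was 0.498 for Ptgs1, -0.022 for Ptger3 and -0.352 for Ptger4 (permutation p = 0.1, 0.944 and 0.265). Spearman's rho was then 0.364, -0.175 and -0.615 (permutation p = 0.247, 0.588 and 0.036).

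**Figure D3:**
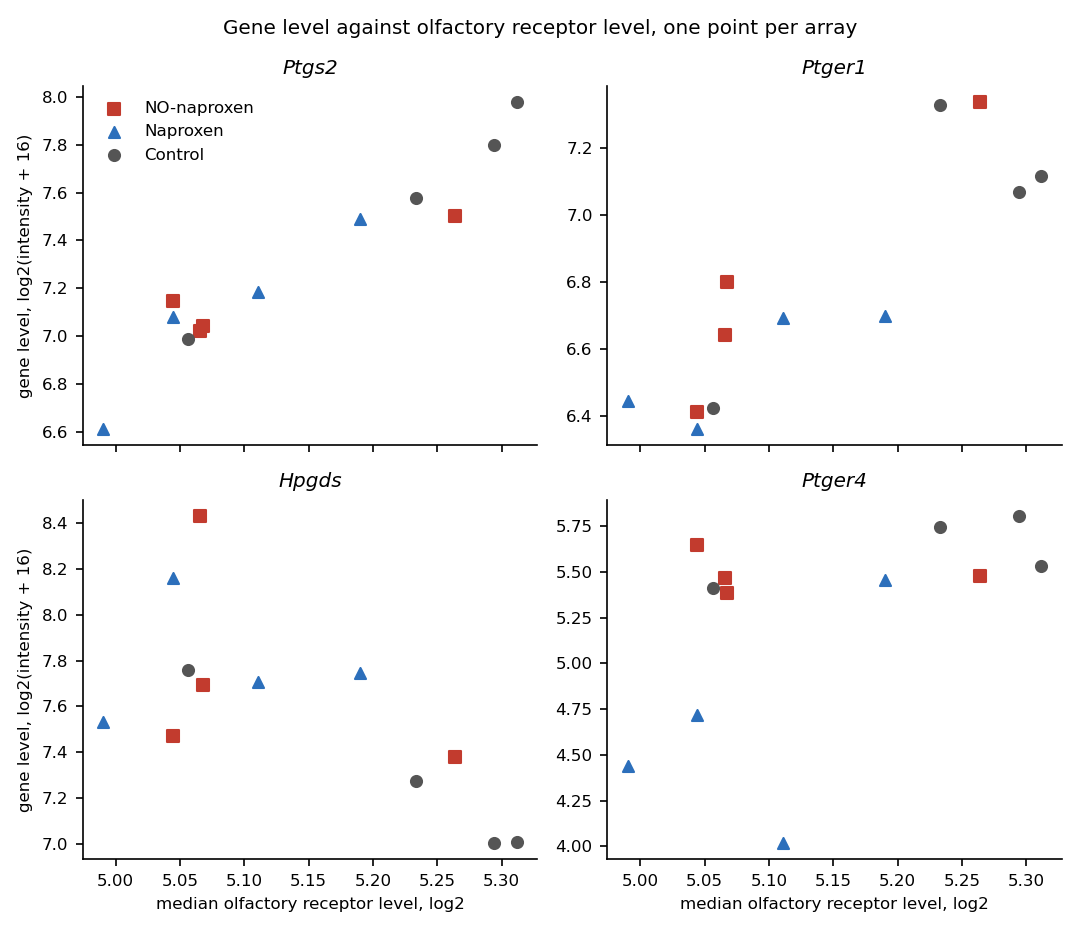
Log2 level of Ptgs2, Ptger1, Hpgds and Ptger4 on each of 12 arrays (vertical) against the array's median log2 level of olfactory receptor probe sets (horizontal), with NO-naproxen, naproxen and control arrays marked apart. Ptgs2 and Ptger1 climb with the background across and within diets, with r = 0.960 and 0.875, while 3 naproxen arrays stand below the rest for Ptger4.

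With the olfactory receptor median as a covariate in the fit, a setting chosen after seeing the data, the log2 fold change of Ptgs2 was -0.04 for NO-naproxen against control and -0.05 for naproxen against control (unadjusted p = 0.79 and 0.787). With the interquartile range as a covariate the Ptgs2 values were -0.05 and -0.17. The log2 fold change of Hpgds was then 0.05 and 0.13, and it was 0.26 and 0.25 with the olfactory receptor median. Ptger1 with the olfactory receptor median was 0.13 for NO-naproxen against control, a change of sign, and -0.04 for naproxen against control. Ptgs1 had a log2 fold change of 0.42 for NO-naproxen and 0.31 for naproxen with the olfactory receptor median (unadjusted p = 0.0443 and 0.14), and 0.31 and 0.20 with the interquartile range. Ptger4 had -0.79 for naproxen against control with the olfactory receptor median and -0.87 with the interquartile range (unadjusted p = 0.00787 and 0.00448). The plot of fold changes under other processing sets these values beside the reported ones.

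**Figure D4:**
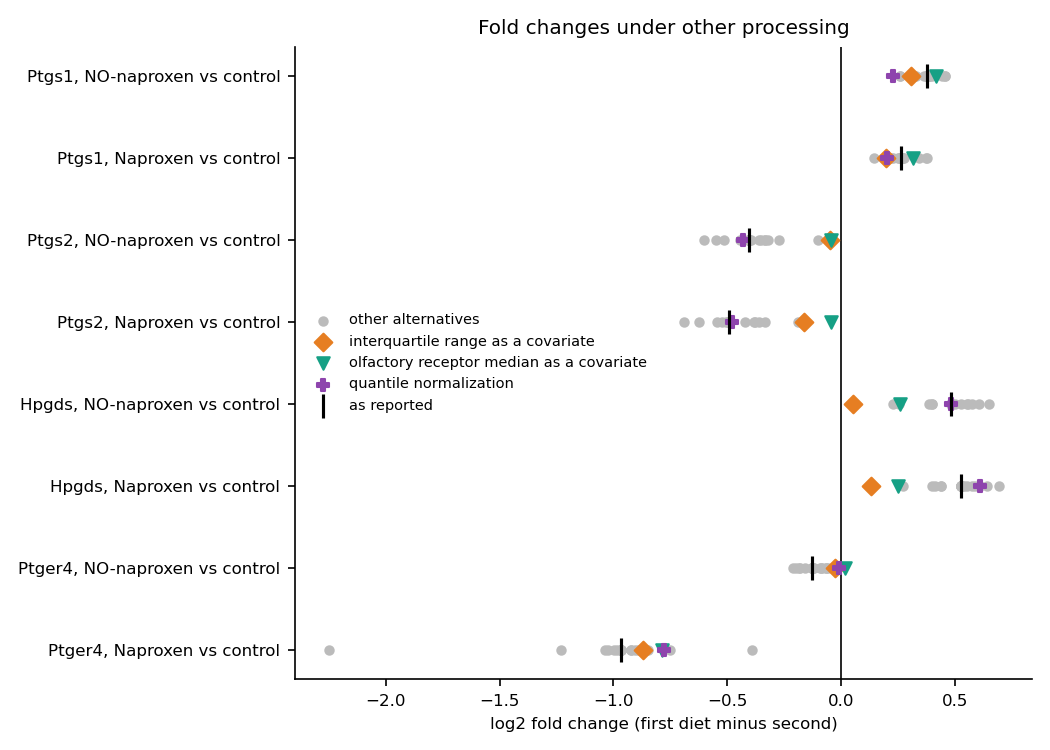
Log2 fold changes of Ptgs1, Ptgs2, Hpgds and Ptger4 against control as reported (black bars) and under the other settings (1 symbol each). The Ptgs2 values reach -0.04 and -0.05 with the olfactory receptor median as a covariate, and those of Ptger4 for naproxen spread from -2.25 to -0.39 with the added constant.

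The rest of the pathway was taken from 5 lists of 47 genes in all, of which 37 were measured and 31 lay above the olfactory receptor range. None passed an adjusted p under 0.05 in limma in any of the 3 comparisons. At an unadjusted p under 0.05 no gene of the 37 was higher in any comparison and 1 was lower in each. Over all probe sets 5.49% were higher and 4.86% lower with NO-naproxen against control, 3.16% and 9.50% with naproxen against control and 1.28% and 0.644% between the drugs. Against control it was, for both drugs, Pla2g5, a secreted phospholipase that releases arachidonic acid, with a mean log2 level of 7.82 ± 0.12 with NO-naproxen, 7.82 ± 0.24 with naproxen and 8.28 ± 0.40 in controls (SD, n = 4 each), and a log2 fold change of -0.46 ± 0.20 (SE) for each drug against control (adjusted p = 0.468 and 0.388). Between the drugs it was the leukotriene B receptor Ltb4r, within the olfactory receptor range, with -0.49 ± 0.23 for NO-naproxen against naproxen (adjusted p = 1.00). The median log2 fold change of the 37 genes was 0.09 for NO-naproxen and 0.03 for naproxen against control, beside 0.00044 and -0.03 over all probe sets.

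Each list is represented by its brightest probe set, and none of these passed. Among 9 measured genes of the phospholipase list it was Pla2g12b, with log2 fold changes of 0.09 ± 0.18 (SE) for NO-naproxen and 0.08 ± 0.18 for naproxen against control. Among 6 other prostanoid synthases it was Ptges3, a chaperone partner also described as a cytosolic prostaglandin E synthase, with 0.25 ± 0.18 and 0.30 ± 0.18. Among 4 measured genes of the list of other prostanoid receptors it was Ptgfr, the prostaglandin F receptor, with 0.29 ± 0.27 and 0.01 ± 0.27. Among 6 genes of transport and breakdown it was Slco2a1, the prostaglandin transporter, with 0.09 ± 0.16 and -0.01 ± 0.16. Its mean log2 level was 12.48 ± 0.14 with NO-naproxen, 12.38 ± 0.17 with naproxen and 12.39 ± 0.15 in controls (SD, n = 4 each), so the spread between rats was small and the diets lay within it. Among 12 genes of the leukotriene branch it was the glutathione transferase Mgst2, with -0.05 ± 0.23 and 0.09 ± 0.23.

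For the 3 genes with an unadjusted p under 0.05 in a comparison, the genes above the olfactory receptor range with the most similar pattern over the 12 arrays were found by Pearson's r of the log2 levels. For Ptgs2 they were Ttc9b, Bnc2 and Ryr3, with r of 0.981, 0.978 and 0.978, where 1% of 9882 candidate probe sets had an r above 0.945. For Hpgds they were Krit1, Crebzf and Cct4, with r of 0.961, 0.960 and 0.960, where 1% had an r above 0.905. For Ptger4 they were Josd2, Wdr27 and Arl11, with r of 0.929, 0.861 and 0.853, where 1% of 9883 had an r above 0.688. The points of all these genes share the same 12 arrays, whose spread and background are given above. Among the 9 prostaglandin genes themselves Ptgs2 and Ptger1 were the most alike pair, with r = 0.759, and Ptgs2 and Hpgds the most opposed, with r = -0.655.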

How the data were processed

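Total RNA from 12 rat livers was depleted of ribosomal RNA, labelled with biotin and hybridised to Affymetrix whole-transcript arrays, as the labels' protocols describe. The submitters' processing notes name Affymetrix Expression Console, version 1.1.1, and the rn4 build. Each deposited value is the linear intensity of a probe set. How the authors summarised and normalised them is not stated in these sources. Symbols came from the platform annotation, in which 13327 probe sets carry 1 symbol, 620 several and 5471 none. Promoter sequences came from RefSeq build GRCr8, where 9 of the 10 genes matched.

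Intensities were taken to log2 after adding 16, as some lie below 1, which understates the change of dim probe sets. The 3 diets were the groups of a single 2-sided limma 3.58.1 fit over all arrays (lmFit and eBayes, R 4.3.3), with Benjamini-Hochberg adjustment over 19418 probe sets. The fit was tested on simulated data drawn independently for each probe set and array. That test does not cover the differences in spread and background between arrays. Standard errors of the log2 fold changes of the 9 genes lay between 0.18 and 0.24, a precision limited by the number of arrays. Permutation tests used scipy 1.17.1, with 100000 resamples for correlations, and figures matplotlib 3.10.9. Groups and replicate numbers came from the sample titles, which call the samples biological replicates, and p-values measure the spread between these samples.

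The genes, lists, tests and alternatives were chosen with earlier results of these data known. Named were all 10 listed genes, pathway genes with an unadjusted p under 0.05 or the brightest probe set of their list, and for each listed gene with an unadjusted p under 0.05 the 3 genes of most similar pattern. Alternatives changed the added constant, normalization, dim filter, spread estimate, array weights, samples and covariates.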

Additional observations from a re-analysis of the deposited data

Results flagged for a closer look

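In 2 of 27 sets of 4 arrays, 9 genes in 3 diets, 1 array stood far from the other 3 by Dixon's gap over range, and chance gives about 1 in 20. For Ptger3 it was NO-naproxen replicate 1, at an intensity of 312 where the other 3 lay between 437 and 462, with a gap over range of 0.856 on the log2 scale. Without that array the log2 fold change of Ptger3 for NO-naproxen against control was 0.25. For Hpgd it was control replicate 3, at 34.7 where the other 3 controls lay between 55.8 and 60.8, with a gap over range of 0.838. Without it the log2 fold changes of Hpgd were -0.0081 for NO-naproxen and 0.02 for naproxen against control.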

How the results depend on the processing

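None of the 9 genes passed an adjusted p under 0.05 in limma as reported or in any of the 24 alternative settings that gave one, where Ptger4, Ptges and Ptgdr2 were tested in 23, and the smallest adjusted p in the alternatives was 0.0806. By the study's criterion the count for naproxen against control, 1 as reported, was 0 with 64 added before log2, 0 without the dimmest 30% of probe sets, which removes Ptger4, and 0 at a fold of at least 2. It was 2, Hpgds and Ptger4, after quantile normalization, median centring or with array weights, and 1 to 4 with single arrays left out, 4 without control replicate 2 and 2 without naproxen replicate 3 or 4. For NO-naproxen against control the count, 0 as reported, was 0 to 2 with single arrays left out, 2 without control replicate 2 and 1 without NO-naproxen replicate 3. For NO-naproxen against naproxen the count, 1 as reported, was 0 with 64 added, without the dimmest probe sets and at a fold of at least 2. Ptger4 kept its direction for naproxen against control in all 23 alternatives in which it was tested, from -2.25 to -0.39, and -1.23 to -0.75 with single arrays left out. Of 27 log2 fold changes 13 kept their sign in every alternative. Over all probe sets the criterion selected 738 for NO-naproxen against control, 1135 for naproxen against control and 111 between the drugs. The first 2 counts were 154 and 191 with 64 added, 236 and 332 with the interquartile range as a covariate, 275 and 371 with the olfactory receptor median as a covariate, and 215 and 291 without the 2 arrays of narrowest spread. With array weights 2527 were selected for NO-naproxen against control and 304 between the drugs, and without the dimmest probe sets 752 for naproxen against control and 40 between the drugs. Between the drugs 299 were selected with 1 added and 8 with 64 added. With single arrays left out the highest counts were 2570 and 2973 against control, both without control replicate 2, and 331 between the drugs without naproxen replicate 4, and the lowest against control were 284 without NO-naproxen replicate 2 and 574 without control replicate 4. The cause was not tested. Averaging several probe sets of a gene was not run, since each gene had 1.

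Deviations of same-numbered samples from their diet means had correlations from -0.38 to 0.48. Differently numbered samples were not compared in this way, so these values cannot decide whether the numbers pair the rats. With the replicate block the counts by the criterion were again 0, 1 and 1 and none passed the adjusted threshold.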
